A study of Homo sapiens with 2 samples.

Results

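Protein phosphatase 2A (PP2A) was followed through 10 of its subunit genes in RNA-seq of NCI-H2030, an established human lung adenocarcinoma cell line. The members were given by name, with no threshold on their values, as the catalytic subunits PPP2CA and PPP2CB, the scaffold subunits PPP2R1A and PPP2R1B, the B55 subunits PPP2R2A and PPP2R2D, and the B56 subunits PPP2R5A, PPP2R5C, PPP2R5D and PPP2R5E. They are 10 of 55773 annotated symbols. Each had 1 row in both deposited tables, and 9 passed the level filter, a mean of at least 1 TPM over both libraries, which 13669 genes passed in all. TPM is transcript abundance scaled for transcript length and for the library total. One library came from cells given an agent labelled miR-494-3p AS (called AS here) and the other from cells given an agent labelled SC. The labels spell out neither name and give no dose or time. SET, a protein that inhibits PP2A, appears in the study's title beside that microRNA. With 1 library of 1 cell line in each group there was no test, no p-value and no replicate error, and differences have no replicate check.

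PP2A is a serine and threonine phosphatase that works as a trimer. A scaffold subunit of stacked helical repeats holds a catalytic subunit and one of several regulatory B subunits, and the B subunit directs the enzyme to its substrates. B55 enzymes act in mitotic exit and on growth signalling kinases, whereas B56 enzymes act at centromeres and kinetochores and on MYC and beta-catenin. PP2A is known as a tumour suppressor, and in lung cancer its activity is often held down by inhibitor proteins such as SET. Messenger RNA was measured, and neither enzyme activity nor protein was.

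The microRNA and the sites that match it are shown first because the treatment is named after it. Mature miR-494-3p lies on chromosome 14 at chr14:101029681-101029702 on the plus strand (RefSeq, GRCh38.p14) and is given 5′ to 3′ with its seed, bases 2 to 8, in capitals.
miR-494-3p: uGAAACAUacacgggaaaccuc
The matches searched on the sense strand of the longest annotated 3' UTR were ATGTTTCA, ATGTTTC and TGTTTCA, the shorter ones counted only outside the longest. Of the 10639 measured coding genes 27.3% held a match. The matches of PPP2R1B and PPP2R5E are shown as examples, not as a full account of the 10 genes. They were of the form TGTTTCA, given in capitals within 29 bases of the transcript from GENCODE 29.
PPP2R1B, bases 773 to 779 of a UTR of 3715: agcagtatgttTGTTTCAttgtgagattg
PPP2R1B, bases 2875 to 2881: aggatgcatctTGTTTCAtaagaaggaag
PPP2R5E, bases 109 to 115 of a UTR of 4652: gatttcaccttTGTTTCAttattacagca
Matches are letters in an annotated UTR, and which 3' ends these cells used was not measured.

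Read depth is unknown, and coverage per unit of FPKM was 3.54 in AS and 3.62 in SC. In AS 14177 gene symbols reached 1 TPM, and in SC 12816. Of the 5 epithelial markers, KRT8 had 345 TPM in AS and 486 TPM in SC, KRT18 had 479 TPM in AS and 558 TPM in SC, and KRT19 was listed at 0 in both. CDH1 had 0.0137 TPM in AS and 0.00741 TPM in SC. EPCAM had 1.84 TPM in AS and 0.604 TPM in SC. The 4 lung lineage markers summed to 1.13 TPM in AS and 1.68 TPM in SC, with SFTPC listed at 0, so these lung markers were at or near 0 but for NAPSA. Of the leukocyte markers PTPRC and CD3E were listed at 0, and CD68, a lysosomal protein that other cells also make, had 203 TPM in AS and 285 TPM in SC. The 2 matched endothelial markers summed to 0.0511 TPM in AS and 0.149 TPM in SC, and the 3 fibroblast markers summed to 23.0 TPM in AS and 30.6 TPM in SC. The part of these shifts in the results was not tested.

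Both catalytic subunits were about 2-fold higher in AS, while the dominant scaffold PPP2R1A and the most abundant B subunit PPP2R5D were slightly lower. The other 6 members lay above SC as well, so that 8 of 10 were higher. Among these 6, PPP2R5A and PPP2R5E, the members of lowest TPM, were 2.34-fold and 2.30-fold higher. Of the 9 measured members 7 were higher in AS, and among all measured genes 66.2% were. In RNA from bulk cultures, a difference carried by a few cells and one shared by all cells cannot be told apart. Ratios are given as log2((AS + 1)/(SC + 1)) on TPM, which understates the change of genes of low level, and a difference was counted at a log2 ratio of 1 or more in size. On that scale 1 of the 9 measured members was at least 2-fold higher in AS and 0 were 2-fold lower, against 16.5% and 2.17% of all measured genes. The median log2 ratio was 0.52 over the 9 measured members and 0.28 over all measured genes.

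**Figure D1:**
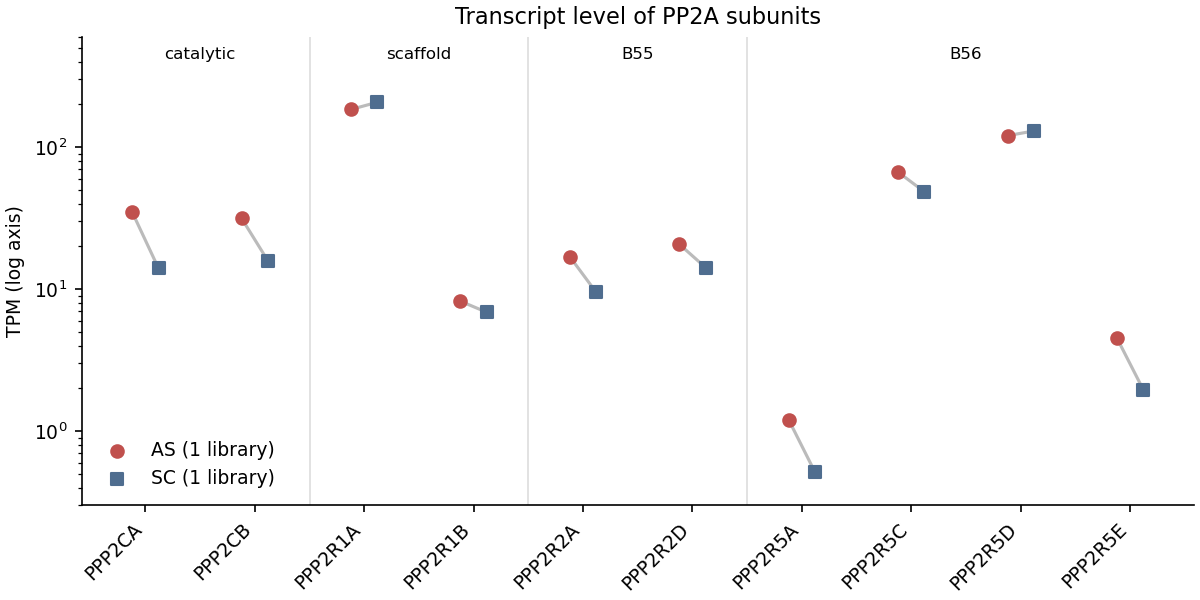
Level of each subunit in TPM on a log axis, with circles for the AS library and squares for the SC library, 1 library each, grouped by role. The AS circle stands above the SC square for 8 of the 10 genes and below it for PPP2R1A and PPP2R5D.

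PPP2CA, the alpha form of the catalytic subunit (ENSG00000113575, chromosome 5, 133530025 to 133561833, minus strand, GRCh37), had 34.8 TPM in AS and 14.01 TPM in SC. That is 2.48-fold, a log2 ratio of 1.25, and 9.77% of measured genes had a larger one. PPP2CB, the beta form (ENSG00000104695, chromosome 8, 30631973 to 30671830, minus strand), had 31.5 TPM in AS and 15.8 TPM in SC, a log2 ratio of 0.95. Both were higher in AS, and their order differed between the libraries. PPP2CA made up 52.5% of the catalytic transcripts in AS and 47.0% in SC. No replicate spread is known against which to set this difference in share.

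PPP2CA shares its place in the genome with other rows of the tables. CTD-2410N18.5, a read-through gene on the same strand that runs from PPP2CA into SKP1, was listed at 222 TPM in AS and 89.2 TPM in SC. That is several times the level of PPP2CA itself. Of its 483 annotated exon bases, 312 are also exon of PPP2CA and 171 of SKP1. Its fold was 2.48, the same as that of PPP2CA to 3 digits, and SKP1, which encodes a subunit of SCF ubiquitin ligases, had 53.4 TPM in AS and 28.6 TPM in SC. The loci assembled from the reads did not separate these genes. One locus covered SKP1 and PPP2CA together and had 88.9 TPM in AS and 42.9 TPM in SC. How reads were divided among these overlapping genes is not stated, so the level of PPP2CA relative to other subunits is uncertain, whereas each of these entries was higher in AS.

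Among the scaffold subunits PPP2R1A (ENSG00000105568, chromosome 19, 52693292 to 52730687, plus strand) was by far the more abundant, at 185 TPM in AS and 207 TPM in SC. Its log2 ratio was -0.17, and 75.5% of measured genes had a higher one. PPP2R1B (ENSG00000137713, chromosome 11, 111597632 to 111637151, minus strand), the beta scaffold, had 8.22 TPM in AS and 6.87 TPM in SC, a log2 ratio of 0.23. It was higher in TPM as deposited but lower than SC once ratios were centred on the median of all genes (-0.0545) or put through trimmed mean scaling (-0.0797). Its deposited coverage was 6.40 reads per base in AS and 3.92 in SC, a log2 ratio of 0.69, so the size of its difference depended on the column. PPP2R1A held 95.7% of the scaffold transcripts in AS and 96.8% in SC.

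The B55 members PPP2R2A and PPP2R2D, which serve in mitotic exit, were both higher in AS. PPP2R2A (ENSG00000221914, chromosome 8, 26149007 to 26230196, plus strand) had 16.9 TPM in AS and 9.50 TPM in SC, a log2 ratio of 0.77. PPP2R2D (ENSG00000175470, chromosome 10, 133747955 to 133773331, plus strand) had 20.7 TPM in AS and 14.2 TPM in SC, a log2 ratio of 0.52. Neither was past 2-fold. PPP2R2D had the higher TPM of the pair in both libraries, with 55.1% of their sum in AS and 59.9% in SC.

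The B56 subunits spanned the widest range of levels. PPP2R5D (ENSG00000112640, chromosome 6, 42952237 to 42980080, plus strand), the delta form, had 121 TPM in AS and 130.1 TPM in SC, a log2 ratio of -0.11. PPP2R5C (ENSG00000078304, chromosome 14, 102228135 to 102394326, plus strand), the gamma form, had 66.8 TPM in AS and 48.5 TPM in SC, a log2 ratio of 0.45. It made up 34.6% of the summed TPM of the 4 B56 members in AS and 26.8% in SC, while the share of PPP2R5D was 62.4% in AS and 71.9% in SC. In coverage the share of PPP2R5C was only 2.21% in AS and 1.18% in SC, so its share depended on the column. PPP2R5C lies on the same chromosome arm as the microRNA gene MIR494, which ends 732 kb before it in the tables' coordinates and was listed at 0 in both libraries.

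PPP2R5E and PPP2R5A, the epsilon and alpha forms of B56, were the members of lowest TPM. PPP2R5E (ENSG00000154001, chromosome 14, 63838075 to 64010092, minus strand) had 4.52 TPM in AS and 1.96 TPM in SC, which is 2.30-fold and a log2 ratio of 0.90. PPP2R5A (ENSG00000066027, chromosome 1, 212458879 to 212535200, plus strand) had 1.20 TPM in AS and 0.514 TPM in SC, and with a mean of 0.856 TPM it is the member that did not pass the filter. Its fold was 2.34, with a log2 ratio of 0.54. Behind these values lay a coverage of 1.998 reads per base in AS and 0.942 in SC for PPP2R5A, and of 7.52 in AS and 3.60 in SC for PPP2R5E. The assembled loci put PPP2R5A far higher, at 11.999 TPM in AS and 8.21 TPM in SC, so its place at the bottom of the order rests on the annotated row. In SC 2 loci overlapped the gene, and the one of larger TPM, used here, covered only the 3' part, from 212521770 to 212535173. In AS the 1 locus reached from 212458893 to 212535184, so the pair compared did not have the same ends.

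By role, the catalytic transcripts summed to 66.3 TPM in AS and 29.8 TPM in SC, a ratio of 2.22. The scaffold transcripts summed to 193 TPM in AS and 214 TPM in SC, a ratio of 0.900. The 2 B55 members summed to 37.6 TPM in AS and 23.7 TPM in SC, and the 4 B56 members to 193 TPM in AS and 181 TPM in SC. These B55 and B56 sums depend on which genes are counted. PPP2R2C, a B55 gene that is no member, had 26.8 TPM in AS and 33.5 TPM in SC, above either B55 member, and PPP2R5B, the remaining B56 gene, had 27.0 TPM in AS and 41.3 TPM in SC. With all 4 B55 genes the sum was 64.5 TPM in AS and 57.2 TPM in SC, a ratio of 1.13 in place of 1.59. With all 5 B56 genes it was 220.1 TPM in AS and 222 TPM in SC, so the direction turned, to a ratio of 0.990. There were 2.91 scaffold transcripts for each catalytic transcript in AS and 7.18 in SC, so scaffold messages outnumbered catalytic ones in both libraries and by less in AS. Adding the read-through row to PPP2CA turned that excess round in AS, to 0.670, and left 1.80 in SC. Among the members there were 5.13 B56 transcripts for each B55 transcript in AS and 7.64 in SC, and with all B55 and B56 genes 3.41 in AS and 3.89 in SC. Over the 10 genes the TPM summed to 489.8 in AS and 449 in SC.

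**Figure D2:**
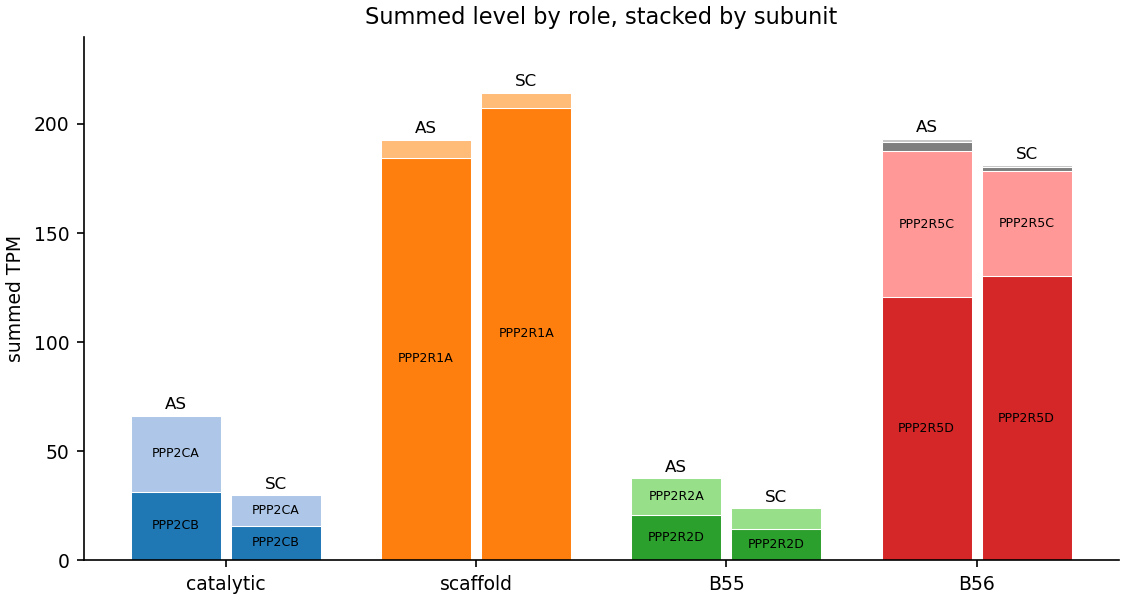
Summed TPM of the catalytic, scaffold, B55 and B56 members (without PPP2R2B, PPP2R2C and PPP2R5B), with the AS bar left of the SC bar for each role and each bar stacked by subunit; PPP2R2A tops the B55 bars, PPP2R1B the scaffold bars, and PPP2R5E and PPP2R5A the B56 bars. The catalytic bar reaches 66.3 in AS against 29.8 in SC, and the scaffold bar 193 in AS against 214 in SC.

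In TPM the most abundant members in both libraries were PPP2R1A, PPP2R5D and PPP2R5C, in that order. A catalytic subunit came next, PPP2CA in AS and PPP2CB in SC. In SC PPP2CA, at 14.01 TPM, lay between PPP2R2D (14.2 TPM) and PPP2R2A (9.50 TPM). Below these, PPP2R1B, PPP2R5E and PPP2R5A followed in that order in both libraries. With 1 library a group, neighbours this close cannot be ranked with any known error. Levels of different genes are compared in TPM, which is per transcript length. In deposited coverage, PPP2R2A had 2.07 reads per base in AS and 1.25 in SC while PPP2R2D had 26.3 in AS and 20.5 in SC, so that column sets the pair much farther apart than TPM does. Coverage also put PPP2R5D (180 in AS, 209 in SC) above PPP2R1A (70.0 in AS, 86.9 in SC). It put PPP2R5C, at 4.28 in AS and 2.56 in SC, below PPP2R5E and PPP2R1B. The high place of PPP2R5C in the order thus rests on TPM.

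Directions were the same in the 4 deposited measures, which are not independent of one another. In coverage, in FPKM and in the assembled loci the same 8 genes were higher and PPP2R1A and PPP2R5D lower in AS. FPKM is TPM rescaled by a constant of each library, 2.13 TPM per FPKM in AS and 1.98 in SC. For several members the locus nearly repeated the annotated row, as for PPP2R1A in AS (184.5 against 184.6 TPM). Coverage was scaled to FPKM with each library's own constant and 0.1 was added. On that scale the log2 ratio was 1.18 for PPP2CA, 0.87 for PPP2CB, -0.28 for PPP2R1A and 1.03 for PPP2R5E. The median over the 9 measured members was 0.69 there and 0.22 over all measured genes. Of these 9, 2 were at least 2-fold higher in coverage and 0 at least 2-fold lower, against 13.9% and 2.38% of all measured genes. The assembled loci also gave 2, PPP2CA in its merged locus and PPP2R5E (log2 ratio 1.42), against 13.5%. A pseudocount of 0.1 gave 2, against 23%, and centring on the median or trimmed mean scaling gave 0, against 9.17% and 8.75%. For PPP2R5E the loci were pieces of the gene, 4 in each library, so the pair compared did not have the same ends.

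**Figure D3:**
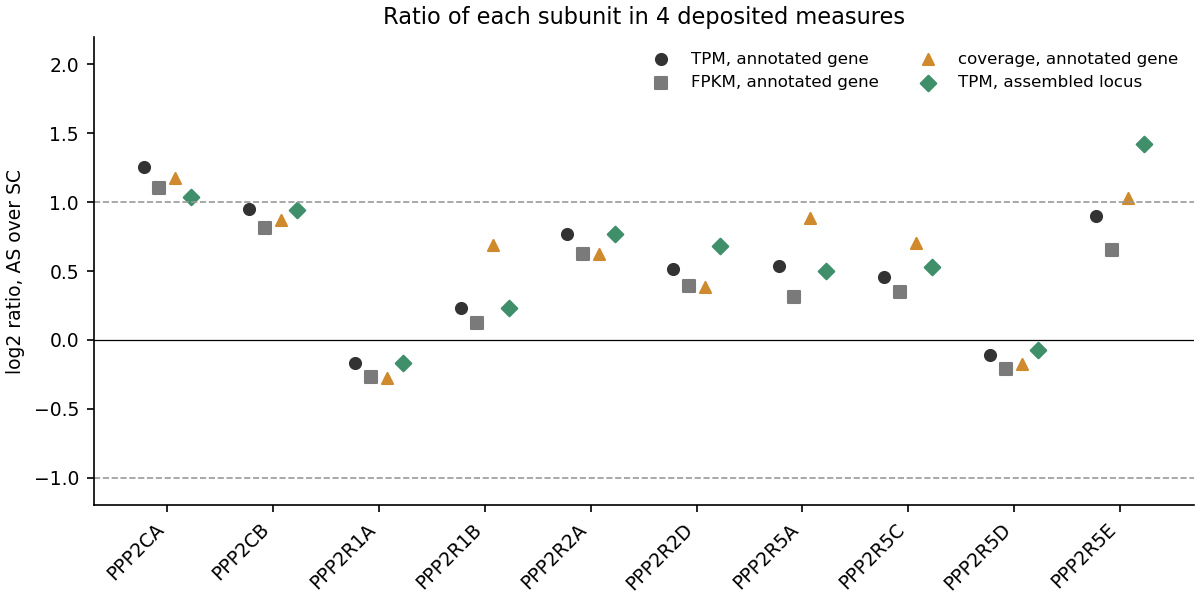
Log2 ratio of AS over SC for each subunit in TPM, FPKM and coverage of the annotated gene and in TPM of the assembled locus, with dashed lines at 2-fold. All 4 points are below 0 for PPP2R1A and PPP2R5D and above 0 for the other genes, and PPP2CA is past 2-fold in each.

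Across the transcriptome the ratio moved with the base composition of the transcript, and most of the members with high ratios were AT-rich. The 2 lower members, PPP2R1A and PPP2R5D, had GC contents of 53.7% and 55.5%, whereas PPP2R2A (38.6%), PPP2R5E (38.8%), PPP2CA (41.3%), PPP2R5C (41.5%) and PPP2R1B (42.8%) were AT-rich. PPP2CB (48.0%) and PPP2R5A (46.7%) lay between. PPP2R2D, at 54.7% GC, was higher in AS all the same. Coding genes were cut into 10 equal groups by GC content, and each member was set beside the median log2 ratio of its GC group. PPP2CB lay 0.51, PPP2R2D 0.47 and PPP2CA 0.35 above the medians of their groups, above the upper quartile in each case. PPP2CA passed it only narrowly (1.254 against 1.250). PPP2R5E lay within 0.01 of the median of its group. PPP2R1B lay -0.54, PPP2R5C -0.45 and PPP2R1A -0.43 from theirs, below the lower quartile in each case. In all, 4 members were above and 6 below the median of their GC group. GC content and log2 ratio had a Spearman's rho of -0.64 over 10639 coding genes, which come from the same 2 libraries, and -0.56 over the 10 members. The part of base composition in the members' ratios was not tested.

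**Figure D4:**
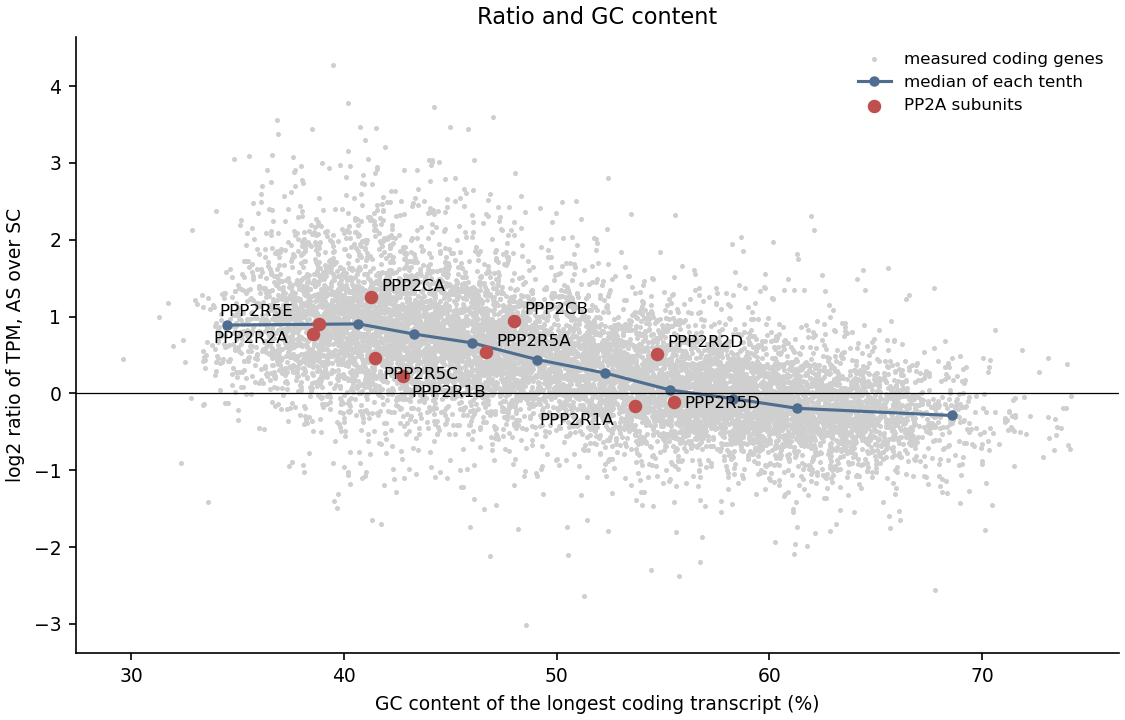
Log2 ratio of TPM, AS over SC, against the GC content of the longest coding transcript for all measured coding genes (grey), the median of each of 10 equal GC groups (blue line, drawn at the middle of the group's GC range) and the 10 subunits (red). PPP2CA, PPP2CB and PPP2R2D lie above the line, and PPP2R1A, PPP2R1B and PPP2R5C below it.

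PPP2R1B and PPP2R5E, whose seed matches are printed above, had log2 ratios of 0.23 and 0.90, and the 10 genes are not compared by their matches here. Among measured coding genes the median was 0.63 for the 2905 with a match and 0.19 for the 7734 without. Those with a match had a median GC content of 44.3% and those without one of 53.5%, so the groups also differ in composition. The part of the sites in these ratios was not tested.

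Of 9 further PP2A subunits, 7 were measured and 0 were past 2-fold in either direction, with a median log2 ratio of 0.31. In coverage 2 of them were, PPP2R3C (1.07) and STRN3 (1.14). PPP2R3C, a B'' type subunit, had 12.6 TPM in AS and 6.23 TPM in SC, a log2 ratio of 0.92. STRN3, one of the striatins that serve as B''' subunits, had 1.69 TPM in AS and 0.607 TPM in SC, a log2 ratio of 0.75. PPP2R5B and PPP2R2C, named after their values were seen, had log2 ratios of -0.60 and -0.31 in TPM, and of -0.75 and 0.19 in coverage, so the direction of PPP2R2C depended on the column. Of the 12 striatin complex partners 9 were measured, and 3 were at least 2-fold higher in AS. These were SLMAP (1.21), PDCD10 (1.19) and MOB4 (1.04), all with GC contents under 40%. In coverage none of the 3 reached 2-fold (0.93, 0.97 and 0.96), and the count became 0. The kinase STK25 was 2-fold lower in TPM, at 34.7 TPM in AS and 74.7 TPM in SC, with a log2 ratio of -1.08 in TPM and -0.47 in coverage.

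Among the 5 genes of assembly, activation and methylation, TIPRL, which binds the free catalytic subunit, had 37.1 TPM in AS and 17.2 TPM in SC (log2 ratio 1.07), and the other 4 were within 2-fold. PTPA, which activates the catalytic subunit and is listed as PPP2R4, had 136 TPM in AS and 151 TPM in SC. Of the 10 inhibitors 5 were at least 2-fold higher and 0 lower, with a median log2 ratio of 1.02 and a median GC content of 43.4%. They were BOD1 (1.47), MASTL (1.46), the kinase whose targets block B55 enzymes, SET (1.35), CIP2A, listed as KIAA1524 (1.34) and ANP32E (1.26). SET had 79.1 TPM in AS and 30.4 TPM in SC. MASTL had 15.03 TPM in AS and 4.82 TPM in SC. Of the 10 inhibitors 9 had a log2 ratio above 0, ARPP19 among them at 0.78. ENSA, the inhibitor with the highest TPM in SC, was lower in AS, at 171 TPM in AS and 247 TPM in SC. Its log2 ratio was -0.53 in TPM and -0.23 in coverage.

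Of 9 proteins that bind B55 or B56 subunits 8 were measured, and 4 were at least 2-fold higher and 0 lower. SGO1, which brings B56 enzymes to centromeres and is listed as SGOL1, had 7.56 TPM in AS and 1.16 TPM in SC. CDCA2 had 24.4 TPM in AS and 8.61 TPM in SC, and the checkpoint kinase BUB1B, which binds B56 at kinetochores, had 20.0 TPM in AS and 8.97 TPM in SC. KIF4A had a log2 ratio of 1.07 in TPM and 0.91 in coverage, where 3 of the 4 remained past 2-fold.

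Related phosphatases also held genes past 2-fold. Of 9 other catalytic subunits of the family 2 were at least 2-fold higher and 0 lower, with a median log2 ratio of 0.91. PPP1CC, a catalytic subunit of protein phosphatase 1, had 51.8 TPM in AS and 20.2 TPM in SC. PPP1CB had 22.2 TPM in AS and 1.74 TPM in SC, a log2 ratio of 3.08 in TPM but of 1.04 in coverage. PPP6C, at 1.05, was also past 2-fold in coverage, which made 3. Of the 11 regulatory subunits of PP4 and PP6, 9 were measured and 4 were at least 2-fold higher, all of PP4. These were PPP4R1 (2.42 in TPM, 1.18 in coverage), PPP4R3B, listed as SMEK2 (1.95), PPP4R3A, listed as SMEK1 (1.46), and PPP4R2 (1.35). In coverage SMEK1 (0.97) and PPP4R2 (0.97) did not reach 2-fold, and the count of 4 became 2. All these counts in TPM stand against the 16.5% and 2.17% of measured genes past 2-fold, and those in coverage against 13.9% and 2.38%. The share at least 2-fold higher in TPM moved with GC content. It was 34.3% among coding genes of 42.0% to 44.6% GC and 0.752% among those of 62.9% to 74.2%. The inhibitors, B55 and B56 binders, other catalytic subunits and PP4 and PP6 subunits had median GC contents of 43.4%, 44.0%, 42.6% and 44.0%. The part of GC content in these counts was not tested.

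**Figure D5:**
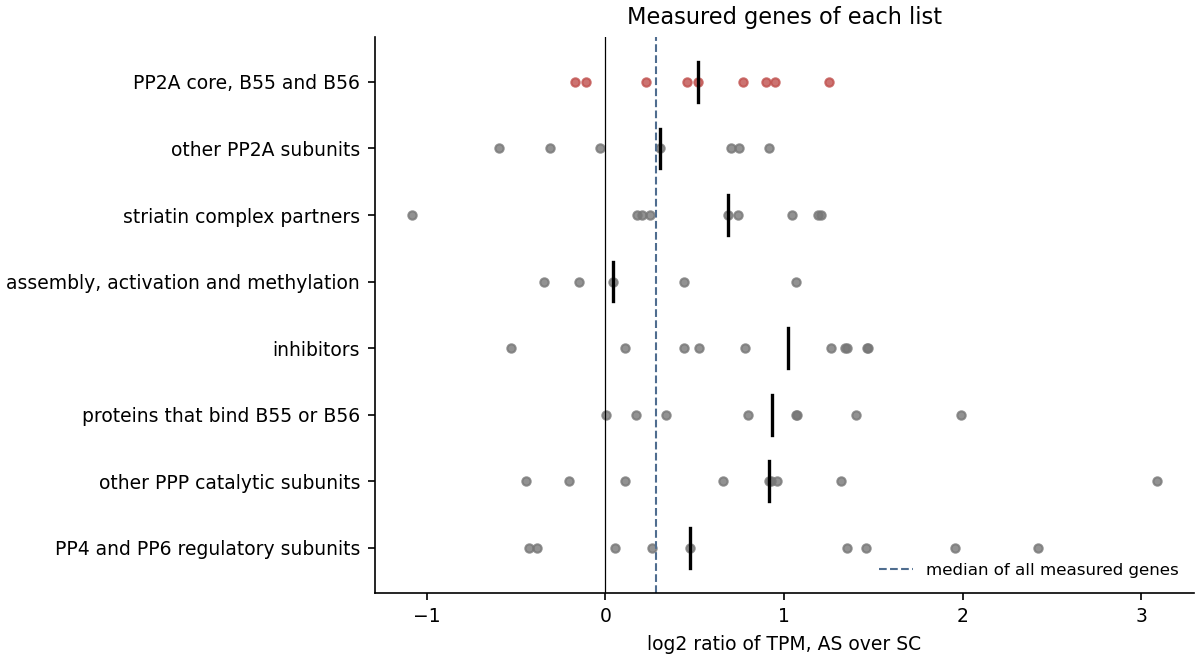
Log2 ratio of TPM, AS over SC, of each measured gene (points) and the median (black bar) of 8 gene lists, with a dashed line at 0.28, the median of all measured genes. The 9 measured PP2A members range from -0.17 to 1.25 with a median of 0.52, and the inhibitors have a median of 1.02.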

How the data were processed

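Per the labels' protocols, RNA was isolated on columns and made into strand-keeping libraries. The deposited table of each library gives TPM, FPKM and coverage (mean reads per base) for every gene, per the file headers. Rows are annotated genes and loci assembled from the reads. Assembled loci sum to 1000000 TPM in each library, and annotated genes to 968917 in AS and 973681 in SC. The aligner, the quantifier and its strand setting were not given in the sources used here. Builds GRCh38 and hg38 stand in the submitters' processing notes, but the coordinates in the tables are those of GRCh37 and are printed as such. Read counts are unknown, so no counting interval was computed.

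Rows of 1 symbol were summed, log2 ratios were computed with a pseudocount of 1 (Python 3.11.15, pandas 2.3.3), and the calculation was tested on simulated data. The locus of a gene was the overlapping one on its strand with the largest TPM. GC content and UTRs came from the longest coding transcripts and UTRs of GENCODE 29, by gene identifier. Members and lists were chosen with earlier results of these data known. All members were named, and of each other list the genes past 2-fold or else the 2 with the largest ratio in size. PTPA, PPP2R5B, PPP2R2C, PPP6C, ENSA and ARPP19 were added after their values were seen. Other pseudocounts, columns, filters and scalings were tried. PECAM1 was not analysed here, and 1 seed site and the counts that need it are not reported here.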

Additional observations from a re-analysis of the deposited data

How the results depend on the processing

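Of 81 recomputed log2 ratios of single members, 73 kept their direction and their side of 2-fold. Taking the largest row of a symbol, one of the settings, could change none of them, since each member had 1 row per library. FPKM, another setting, is TPM rescaled by 1 constant within each library. PPP2R1B changed direction after centring (-0.0545) and after trimmed mean scaling (-0.0797), and PPP2CA was then no longer past 2-fold (0.97 and 0.91). PPP2R5E was past 2-fold in coverage, in the assembled locus and with a pseudocount of 0.1, where PPP2R5A was too. The number of measured members at least 2-fold higher was 1 and became 2 in coverage, in the assembled loci and with a pseudocount of 0.1, and 0 after centring or trimmed mean scaling; the number 2-fold lower was 0 in every setting tried. The scaffold over catalytic ratio was 1.35 in AS and 3.27 in SC in coverage, 1.602 in AS and 3.65 in SC in the assembled loci, where the PPP2CA locus also holds SKP1, and 0.670 in AS and 1.80 in SC with the read-through row, an alternative chosen after seeing the data. The B56 over B55 ratio of the members was 6.84 in AS and 9.90 in SC in coverage, and 5.40 in AS and 8.04 in SC in the assembled loci. With PPP2R2B, PPP2R2C and PPP2R5B added, also chosen after seeing the data, it was 3.41 in AS and 3.89 in SC. Why levels differ between the columns was not tested. With 1 library a group and no read counts, no error can be put on any of these values.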

Other observations

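Other transcripts overlap some of the subunit genes. CTD-2017C7.2, on the strand opposite to PPP2R5C and within it, had 0.348 TPM in AS and 1.58 TPM in SC. SIK2, a kinase gene that runs into the 3' end of PPP2R1B from the other strand, had 4.54 TPM in AS and 1.54 TPM in SC. MEA1, which overlaps the 3' end of PPP2R5D on the other strand, had 280.5 TPM in AS and 331 TPM in SC. The library kit keeps strand, but whether the deposited values used it is not stated, so reads from such overlaps cannot be told apart from those of the subunit. The pseudogene PPP2R2DP1 was listed at 0 in both libraries.

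The ratio of coverage to FPKM within a gene differed between the libraries for PPP2R1B and PPP2R5C. In PPP2R5A and PPP2R5E it equalled the constant of the library, 3.54 in AS and 3.62 in SC, within 1%. For PPP2R1B it was 1.66 in AS and 1.13 in SC, and for PPP2R5C 0.136 in AS and 0.104 in SC, and these are the members whose coverage and TPM ratios were farthest apart among those measured.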
